A study of Mus musculus with 6 samples.

Results

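The genes described here are 10 transcripts of fat cells and of the programme that makes them: Fabp4, Lpl, Adipoq, Pparg, Cebpa, Cd36, Plin1, Plin4, Cidec and Lep. They were taken by symbol from count tables that list 23337 genes, and all 10 were listed. The tables come from RNA sequencing of 6 cultures of stromal fibroblasts from the mouse mammary gland, 3 of them Sharpin-cpdm (genotype cpdm/cpdm, Sharpin deficient) and 3 wild type (wt/wt). All animals were of the C57BL/KaLawRij strain and 7 weeks old, each culture pooled the glands of 3 mice, and the cells were at passage 0. The cpdm allele is a spontaneous frameshift of Sharpin carried by every cell of the animal, and its product belongs to LUBAC, the enzyme complex that builds linear ubiquitin chains. Libraries are called mutant (Sharpin-cpdm) or wild type here and carry the replicate numbers 1 to 3 of their labels. Per the labels' protocols, the glands were digested with collagenase, the cells were separated by differential centrifugation and grown to confluence in medium with serum, and floating cells were taken off.

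The mammary gland of the mouse grows into a fat pad, so that fibroblasts, preadipocytes and fat cells lie next to each other in its stroma. Fat cells arise from fibroblast-like preadipocytes when the transcription factors C/EBP-beta and C/EBP-delta switch on Pparg and Cebpa, which then maintain each other and the genes of lipid storage. Several of these genes are not exclusive to fat: Fabp4, Cd36, Lpl and Pparg are also known from macrophages, and Fabp4 and Cd36 from the endothelium of small vessels.

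The libraries held 13570649 to 15656196 gene counts each, and a floor of 3 counts corresponded to between 0.192 and 0.221 CPM (gene counts scaled to a library total of 1000000). Sharpin itself stood at 10.5, 9.13 and 9.50 CPM across mutants 1 to 3 and at 24.5, 25.2 and 31.2 CPM across wild types 1 to 3. Fibroblast Col1a1 (20050 to 24696 CPM) and mesenchymal Vim (2739 to 3240 CPM) were abundant. Other fibroblast markers varied more between libraries: Pdgfra (216 to 1165 CPM), Dcn (325 to 1982 CPM) and Lum (38.5 to 172 CPM). Markers of other cells were present too, among them endothelial Pecam1 (79.1 to 236 CPM), epithelial Krt8 (38.8 to 130 CPM) and myeloid Lyz2 (46.3 to 295 CPM).

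The sequences just before the transcription starts show which regulatory letters the members with an entry carry there. RefSeq windows (GRCm38.p6, the build that mm10 names) matched 8 of the 10 genes, with 11 start sites in all, and 250 bases before each start were searched on both strands. Fabp4 and Lpl had no entry. Cebpa and the outermost and innermost of the 3 starts of Pparg are shown because they are the pair of master regulators and had reads in every library. Adipoq, Plin1 and Lep are shown because their transcripts were at or near 0. Cidec was also near 0, but its 2 windows, 1 of them without any match, are not shown. The windows of Cd36, Plin4 and the middle start of Pparg are not shown either. As Fabp4 and Lpl are missing and the printed windows were picked, they do not compare transcribed with silent members. All are printed 5′ to 3′ on the strand of the gene, ending at the base before the start. Capitals mark matches to TATAAA (the TATA box), CCAAT (the CCAAT box), GGGCGG (a GC box), AGGTCA (the half-site of nuclear receptors) and TTGNNCAA (a loose form of the C/EBP recognition sequence).
Cebpa, chr7:35119043-35119292, plus strand: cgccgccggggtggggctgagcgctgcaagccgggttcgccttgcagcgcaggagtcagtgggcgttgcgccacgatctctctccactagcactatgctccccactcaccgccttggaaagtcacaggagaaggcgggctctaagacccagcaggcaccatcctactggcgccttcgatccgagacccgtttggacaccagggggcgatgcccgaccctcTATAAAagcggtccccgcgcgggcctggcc
Pparg, outermost start, chr6:115360894-115361143, plus strand: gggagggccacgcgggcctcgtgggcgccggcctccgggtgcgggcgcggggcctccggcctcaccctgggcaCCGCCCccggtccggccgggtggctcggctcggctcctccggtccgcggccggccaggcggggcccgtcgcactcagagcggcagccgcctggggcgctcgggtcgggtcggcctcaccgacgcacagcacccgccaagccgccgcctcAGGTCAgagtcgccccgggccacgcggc
Pparg, innermost start, chr6:115421816-115422065, plus strand: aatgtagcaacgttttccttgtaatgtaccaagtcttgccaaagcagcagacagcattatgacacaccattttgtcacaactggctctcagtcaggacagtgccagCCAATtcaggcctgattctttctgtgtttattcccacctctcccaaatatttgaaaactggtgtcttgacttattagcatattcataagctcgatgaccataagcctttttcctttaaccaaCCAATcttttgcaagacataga
Adipoq, chr16:23146286-23146535, plus strand: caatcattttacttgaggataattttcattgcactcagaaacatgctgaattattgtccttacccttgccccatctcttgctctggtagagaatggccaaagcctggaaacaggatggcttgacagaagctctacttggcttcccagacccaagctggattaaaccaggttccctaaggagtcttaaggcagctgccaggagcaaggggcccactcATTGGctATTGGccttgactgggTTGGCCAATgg
Plin1, chr7:79732777-79733026, minus strand: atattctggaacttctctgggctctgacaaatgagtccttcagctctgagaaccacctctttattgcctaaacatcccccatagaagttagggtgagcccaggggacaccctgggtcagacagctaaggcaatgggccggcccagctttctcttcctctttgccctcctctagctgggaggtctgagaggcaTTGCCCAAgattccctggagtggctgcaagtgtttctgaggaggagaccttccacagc
Lep, chr6:29059971-29060220, plus strand: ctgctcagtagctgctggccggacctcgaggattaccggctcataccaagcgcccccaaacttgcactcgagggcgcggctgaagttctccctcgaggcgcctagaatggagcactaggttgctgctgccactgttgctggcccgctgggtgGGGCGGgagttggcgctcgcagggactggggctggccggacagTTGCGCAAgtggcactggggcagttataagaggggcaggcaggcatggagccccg

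Of 2 spacings tried for the C/EBP sequence, the one with 3 free bases (TTGNNNCAA) was searched first and matched 1 of the 11 windows, the innermost of Pparg, beside 5.02% of all windows. It was replaced by the spacing with 2 free bases, that of the palindrome C/EBP binds, after those matches had been seen. TTGNNCAA was found in 4 of the 11 windows, those of Adipoq, Plin1 and Lep and 1 of the 2 windows of Cidec, beside 5.65% of all 32851 RefSeq windows of the same length. In the Lep window it read TTGCGCAA at 55 bases before the start. In Adipoq it read TTGGCCAA at 11 bases before the start and overlapped a CCAAT match. A pair of AGGNCA half-sites in a row with 1 base between them, the form bound by PPAR-gamma with its RXR partner, was in 0 of the 11 windows and in 0.338% of all windows. CCAAT was in 5 of the 11 windows, beside 33.8% of all windows, and GGGCGG in 4 of the 11, beside 32.7%. TATAAA was in 2 of the 11 windows, beside 12.4% of all windows. It stood at 30 bases before the start in Cebpa and, on the other strand, at 29 in the middle Pparg window. AGGTCA was in 3 of the 11, beside 14% of all windows. It stood at 28 bases before the start in the outermost and at 9 in the middle Pparg window, and at 228 in Cd36. These are matches of letters, and the counts, which are summed over a gene, do not separate the starts of Pparg. The outer starts of Pparg are known for the broadly expressed form of the receptor and the innermost for the form restricted to fat.

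The members split into a group with ample reads and a group that was almost silent. Transcripts that mark lipid-laden fat cells were at or near 0 in every library. Lep, the appetite hormone leptin (chromosome 6, 29060220 to 29073877), had 0 counts in all 6 libraries, which allows at most 0.0350 CPM over the 85832328 counts of the series. Plin1, the coat protein of fat-cell lipid droplets (chromosome 7, 79720218 to 79732903), had 1 count, in Sharpin-cpdm library 3. Cidec, which fuses lipid droplets (chromosome 6, 113424634 to 113435760), had 3 counts, all in wild-type library 3. Adipoq, the hormone adiponectin (chromosome 16, 23146536 to 23158028), had 7 counts: 0, 0 and 3 across mutants 1 to 3, and 2, 0 and 2 across wild types 1 to 3. These 4 genes did not pass the low-count filter, and at this depth no difference between genotypes was detectable for them. Plin4, another perilipin (chromosome 17, 56100591 to 56109803), had few reads but passed, with 5, 4 and 24 counts in Sharpin-cpdm and 14, 8 and 26 in wild type.

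The other 5 members were well above the floor. Per kilobase of transcript (CPM divided by the length of the principal GENCODE M21 transcript), Lpl led with a mean of 170 CPM per kilobase over the 6 libraries. It was followed, on this length, by Fabp4 with 55.4, Cebpa with 11.96, Cd36 with 11.6, Pparg with 3.64 and Plin4 with 0.163 CPM per kilobase. Lpl exceeded Fabp4 in each of the 6 libraries, although the ranges of the 2 genes over libraries overlapped (65.9 to 337 and 25.6 to 92.4 CPM per kilobase). On this length Fabp4 did not overlap Cebpa (10.7 to 13.9 CPM per kilobase). Cebpa and Cd36 did not separate, with Cebpa higher in 2 of 6 libraries, while Cd36 was above Pparg, and Pparg above Plin4, in all 6. The place of Fabp4 rests on the length used. With the union of all exons of a gene, the length used first and replaced after the values had been seen, Fabp4 had 11.1, Cebpa 11.9 and Cd36 10.9 CPM per kilobase, and Fabp4 was above Cebpa in 2 and above Cd36 in 3 of 6 libraries. Lpl led with either length (66.9 CPM per kilobase with the union), and Pparg, at 2.18, stayed below these 4. The cultures held transcripts of the regulators and of fatty acid uptake with almost none of the fat-cell hormones and droplet coats.

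**Figure D1:**
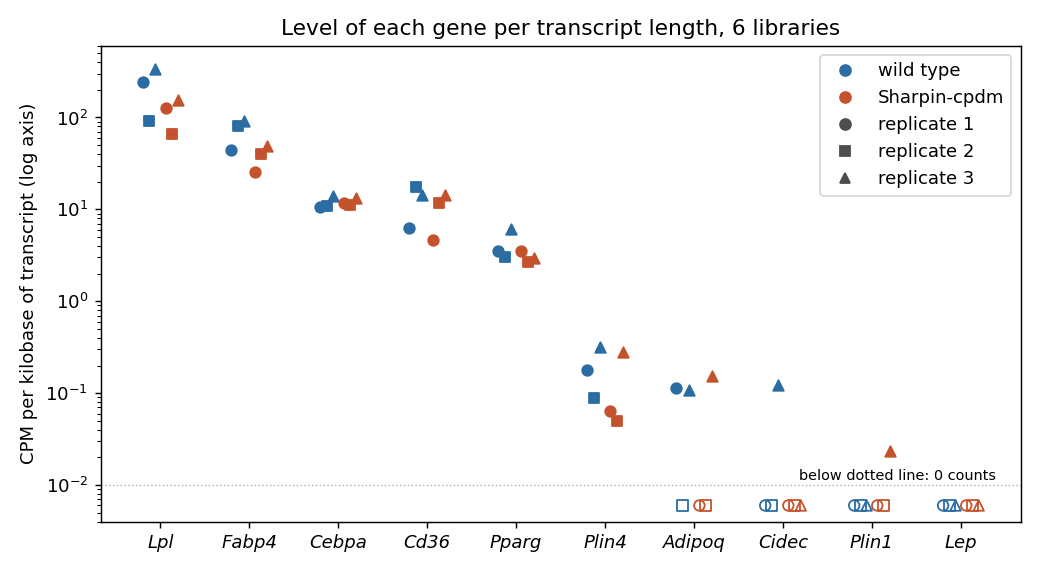
Level of each of the 10 genes in CPM per kilobase of transcript on a log axis, 1 symbol per library, wild type in blue and Sharpin-cpdm in red, with open symbols under the dotted line for libraries with 0 counts. With the principal transcript as length, Lpl and Fabp4 lie highest, at means of 170 and 55.4 (Fabp4 at 11.1 with the union of exons), and Lep is open in all 6 libraries.

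The question put to the 2 genotypes was which stromal transcripts differ when SHARPIN is missing. Of the 10 genes 6 could be tested, and when each mutant was set against the wild type that bears its number, 2 of the 6 fell and 0 rose. Over all 13442 tested genes, 2.11% fell and 0.394% rose in that fit (2.51% in either direction), and DESeq2 with the block, which also called these 2, called 2.14% lower. The 2 were Fabp4 and Lpl. The replicate numbers were used as a block because same-numbered libraries deviated together; without the block, edgeR's quasi-likelihood test called 0 of the 6 and 0 of all genes (307 of 13442 had an unadjusted p under 0.05, and DESeq2 without the block called 10 genes, 2 higher and 8 lower, none of them among the 6). The planned test had no block, and the choice of the block rests on these data. On simulated data the fit with the block made more false calls than its adjustment allows for. The words rose and fell are used below for genes that passed with the block. The labels do not say what a replicate number marks. As the data are from bulk cultures, fewer cells of a type and less RNA per cell cannot be told apart.

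Fabp4 encodes the fatty acid binding protein that carries fatty acids inside fat cells, macrophages and the endothelium of small vessels (chromosome 3, 10204088 to 10208576, minus strand, ENSMUSG00000062515.3, protein coding). Its level was 22.9, 36.0 and 43.6 CPM across mutants 1 to 3 and 39.7, 72.9 and 82.8 CPM across wild types 1 to 3. Every Sharpin-cpdm library was lower than its wild-type partner, but the groups overlapped, since wild-type library 1 lay below Sharpin-cpdm library 3. Within pairs 1, 2 and 3 the wild-type level was 1.73, 2.03 and 1.90 times the mutant level. The fitted log2 ratio of mutant to wild type was -0.93 ± 0.06 (SE of the fit, adjusted p 0.00488, edgeR with block). Here and below, the ± of a log2 fold change is derived from edgeR's test and is not the spread of the 3 pair ratios. Without the block it was -0.94 ± 0.34 (edgeR's unadjusted p 0.0286, adjusted p 1.00). Fabp4 passed with the block when any 1 pair was left out, at an edgeR adjusted p between 3.82e-04 and 0.0418.

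Lpl encodes lipoprotein lipase, the secreted enzyme that frees fatty acids from circulating lipoproteins (chromosome 8, 68880491 to 68907448, plus strand, ENSMUSG00000015568.16). It was the most abundant member, at 522, 271 and 631 CPM across mutants 1 to 3 and 1010, 380 and 1389 CPM across wild types 1 to 3. Again each mutant library lay below its partner and the groups overlapped, here because both libraries numbered 2 were the lowest of their genotype. The wild-type level was 1.94, 1.40 and 2.20 times the mutant level in pairs 1, 2 and 3. The log2 fold change was -0.87 ± 0.12 (adjusted p 0.0256, edgeR with block), and -0.98 ± 0.49 without it (adjusted p 1.00, edgeR). Without pair 3 it was -0.72 ± 0.11 and no longer passed (adjusted p 0.0953, edgeR with block).

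**Figure D2:**
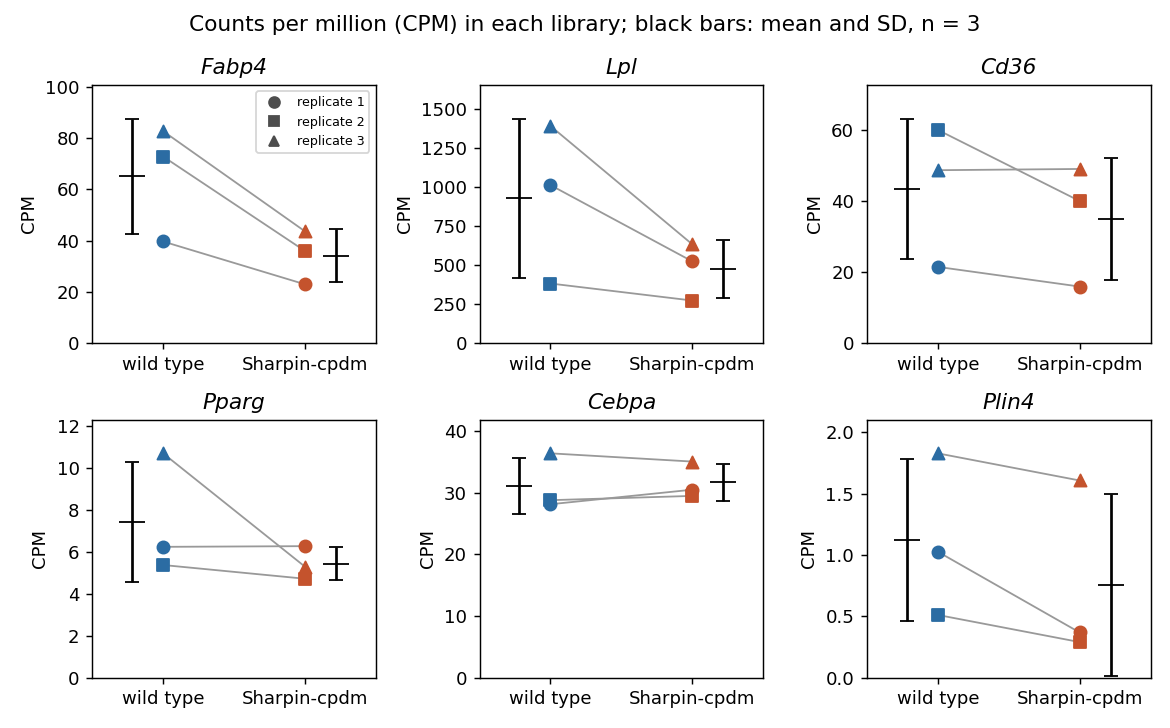
CPM of the 6 tested genes in each library, wild type on the left and Sharpin-cpdm on the right of each panel, with grey lines between same-numbered libraries and black bars for mean and SD (n = 3). All 3 lines slope down for Fabp4, Lpl and Plin4, whereas those of Cebpa are nearly level.

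Neither of the paired regulators of the programme passed the test. Cebpa, which encodes C/EBP-alpha (chromosome 7, 35119293 to 35121928, plus strand), stood at 30.5, 29.5 and 35.1 CPM across mutants 1 to 3 and at 28.1, 28.8 and 36.4 CPM across wild types 1 to 3. The values of the genotypes interleave, and the log2 fold change was 0.02 ± 0.07 (adjusted p 0.923, edgeR with block). Pparg, which encodes the nuclear receptor PPAR-gamma (chromosome 6, 115360951 to 115490399, plus strand), stood at 6.26, 4.71 and 5.29 CPM in Sharpin-cpdm and at 6.23, 5.37 and 10.7 CPM in wild type. Wild-type library 3 stands apart from the other 5, which lie within 4.71 to 6.26 CPM. The log2 fold change of Pparg was -0.44 ± 0.23 (adjusted p 0.390, edgeR with block), and -0.08 ± 0.18 without pair 3. Antisense genes overlap Pparg (Gm44079) and Cebpa (Gm45091), and the library kit did not mark strand, so that reads of the partners cannot be told apart.

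Cd36, the membrane receptor that takes up fatty acids (chromosome 5, 17781690 to 17888801, minus strand), stood at 15.9, 40.1 and 49.1 CPM across mutants 1 to 3 and at 21.5, 60.2 and 48.8 CPM across wild types 1 to 3. It was lower in the mutant in pairs 1 and 2 and differed little in pair 3, where the wild-type level was 0.993 times the mutant level. Its log2 fold change was -0.34 ± 0.11 (adjusted p 0.190, edgeR with block). Plin4 stood at 0.368, 0.290 and 1.61 CPM in Sharpin-cpdm and at 1.03, 0.511 and 1.83 CPM in wild type. It was lower in all 3 pairs, but on counts of 4 to 26 reads, and the log2 fold change was -0.64 ± 0.36 (adjusted p 0.427, edgeR with block). It was -0.35 with the block without pair 1, and without the block it lay between -1.73 (mutant 3 left out) and -0.012 (wild type 3 left out). Plin4 also overlaps Hdgfl2 on the opposite strand.

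Among the 6 tested genes 3 (Fabp4, Lpl and Plin4) were lower in all 3 pairs, beside 18.5% of all tested genes, and 0 were higher in all 3, beside 22.7%. The CPM of the genotypes separated without overlap, with Sharpin-cpdm lower, for 0 of the 6 and for 2.59% of all tested genes, and with Sharpin-cpdm higher for 0 of the 6 and for 3.35%. The median log2 fold change of the 6 was -0.54 with the block, beside -0.00157 for all tested genes.

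**Figure D3:**
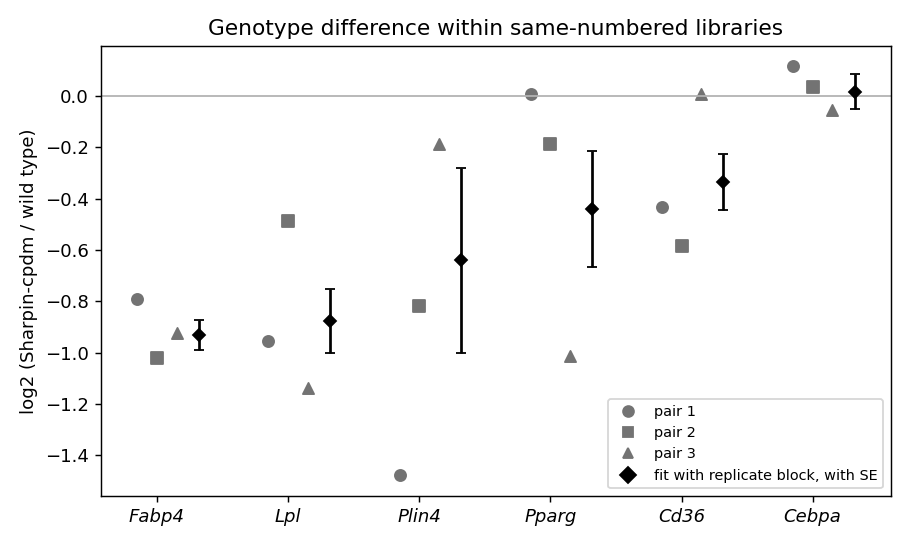
Log2 ratio of Sharpin-cpdm to wild-type CPM within same-numbered libraries (grey symbols) and the log2 fold change of the fit with the replicate block with its SE (black diamonds). The 3 ratios lie close together for Fabp4 (-0.79 to -1.02) and spread widely for Plin4 (-0.19 to -1.48).

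Several members also differed between the numbered pairs. In the test of the replicate number beside genotype, 4 of the 6 tested genes differed between pairs (Fabp4, Lpl, Cd36 and Plin4), and 37.2% of all tested genes did. By edgeR, the adjusted p of the replicate number was 7.10e-04 for Fabp4, 0.00236 for Lpl, 0.00133 for Cd36 and 0.0258 for Plin4, and 0.0596 for Cebpa and 0.263 for Pparg. Among the wild-type libraries the highest level was 3.65 times the lowest for Lpl, 2.80 times for Cd36, 2.09 times for Fabp4 and 1.29 times for Cebpa. The order of the pairs was not shared: Fabp4 and Cd36 were lowest in libraries 1 of both genotypes, and Lpl and Plin4 in libraries 2. In libraries 2 the summed levels of the macrophage and pericyte lists were the highest of each genotype (541 and 644 CPM, and 7578 and 7091 CPM, for Sharpin-cpdm and wild type), and the fibroblast sum was the lowest of each (93997 and 93940 CPM). The part of these in the low Lpl was not tested.

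Markers of endothelial cells, which are known to express Fabp4 and Cd36, moved with genotype in the same libraries. Of 23 endothelial markers, all of which were tested, 18 fell and 0 rose, beside 2.11% and 0.394% of all tested genes. Their median log2 fold change was -0.77. All 23 also differed between replicate numbers, beside 37.2% of all tested genes. So did 11 of 11 tested pericyte, 18 of 19 macrophage and myeloid, 12 of 17 fibroblast and 5 of 14 epithelial markers. Across mutants 1 to 3 the summed level of the 23 endothelial markers was 718, 906 and 1084 CPM. Across wild types 1 to 3 it was 954, 1555 and 1727 CPM, and 0 of the 23 were at 0 in all libraries. The wild-type sum was 1.33, 1.72 and 1.59 times the mutant sum in pairs 1, 2 and 3. Without pair 2 the number called was 10, and without pair 3 it was 1, against 19 without pair 1. Over all genes, 284 were lower with all 3 pairs, and 119, 41 and 519 in those 3 fits. Calls were thus lost over all genes too without pair 2 or pair 3, and gained without pair 1. Per 1000 CPM of the endothelial sum, Fabp4 stood at 31.9, 39.7 and 40.3 CPM across mutants 1 to 3 and at 41.6, 46.9 and 47.9 CPM across wild types 1 to 3. On that scale the wild-type level of Fabp4 was 1.30, 1.18 and 1.19 times the mutant level within pairs, and that of Lpl 1.46, 0.817 and 1.38 times. For Cd36 the same ratios were 1.02, 0.875 and 0.623. The part of endothelial cells in the fall of Fabp4 was not tested.

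**Figure D4:**
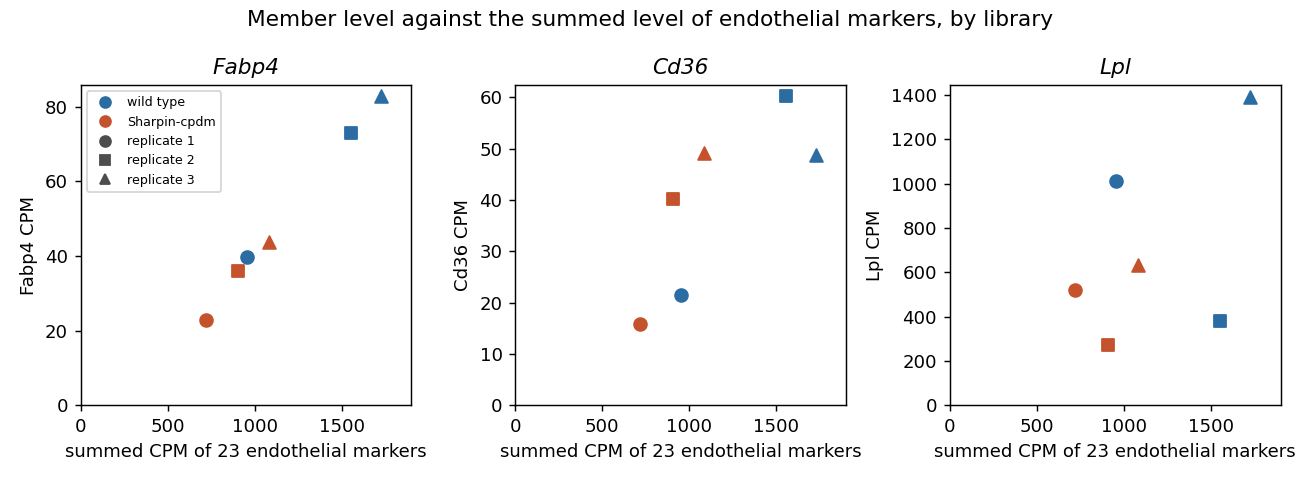
CPM of Fabp4, Cd36 and Lpl in each library (vertical axis) against the summed CPM of 23 endothelial markers in the same library (horizontal axis). The order of the 6 libraries by Fabp4 is their order by the endothelial sum, while Lpl is lowest in libraries 2, where the sum is 906 and 1555 CPM.

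Macrophages are the other non-fat source known for Fabp4, Cd36, Lpl and Pparg. Of 19 tested macrophage and myeloid markers 0 fell and 0 rose, the median log2 fold change was 0.05, and the summed level ranged from 208 to 541 CPM in Sharpin-cpdm and from 116 to 644 CPM in wild type. The wild-type macrophage sum was 0.557, 1.19 and 0.796 times the mutant sum in pairs 1, 2 and 3. The pan-leukocyte marker Ptprc lay between 0.737 and 4.85 CPM. The part of macrophages in the levels of Fabp4, Cd36, Lpl and Pparg was not tested. Of 14 tested epithelial markers 0 fell and 0 rose (median -0.34, sums of 240 to 517 and 361 to 666 CPM, 9 calls without pair 1), with the milk protein genes Csn2 and Wap at 0 in all libraries. Of 11 tested pericyte markers 3 fell and 0 rose (median -0.40, sums of 4156 to 7578 and 3566 to 7091 CPM, between 0 and 7 calls without 1 pair), and of 17 tested fibroblast markers 4 fell and 0 rose (median -0.10, sums of 93997 to 107130 and 93940 to 113257 CPM, between 2 and 6 calls without 1 pair).

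The genes whose log2 CPM tracked each member most closely over the 6 libraries differed from member to member. For Fabp4 they were Gimap8, Gpr116 and Cd93, with Pearson's r of 0.997, 0.997 and 0.996 as a description over 6 libraries that share 2 genotypes and 3 replicate numbers. Cd93 is itself among the 23 endothelial markers. For Lpl they included Nfkbiz and the aminopeptidase gene Enpep (r of 0.996 and 0.993). Nfkbiz, an atypical inhibitor of NF-kappaB, stood at 29.8, 19.9 and 33.1 CPM in Sharpin-cpdm and at 44.8, 25.5 and 49.7 CPM in wild type, with the same dip in libraries 2. For Cebpa the closest were Yy1, BC026585 and Hgf, for Pparg Zbtb7b, Fam49a and Chmp1b, for Cd36 Lrrc27, Gga3 and BC023829, and for Plin4 Irx1, Taf6 and Tecpr1, with r of at least 0.982.

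Upstream of the members, adipogenic transcription factors gave a single call. Of 25 tested genes 1 fell and 0 rose, with a median log2 fold change of -0.12. The call was Cebpb, the factor that acts early in fat-cell formation, at 90.6, 83.4 and 112 CPM across mutants 1 to 3 and 111, 110 and 135 CPM across wild types 1 to 3. Each mutant library was below its partner, by a log2 fold change of -0.33 ± 0.05 (adjusted p 0.0235, edgeR with block), and did not pass without pair 2 (0.129) or pair 3 (0.118). Cebpd, its partner, had -0.20 ± 0.05 (adjusted p 0.124, edgeR with block), and the PPAR-gamma partner Rxra -0.05 ± 0.06. Without pair 1 the list had 3 calls. Of 21 tested inhibitors of adipogenesis 0 fell and 0 rose (median -0.00569), with 2 calls without pair 1. Foxc2, a forkhead factor, came nearest, at 0.81 ± 0.15 on the log2 scale (adjusted p 0.0502 in edgeR and 0.0328 in DESeq2, both with block). Twist1, a mesenchymal factor, had -0.30 ± 0.07 (adjusted p 0.116, edgeR with block).

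Preadipocyte and progenitor genes gave 5 falls and 0 rises among 22 tested, with a median of -0.21. Dpp4, a peptidase on early adipose progenitors, stood at 9.43, 11.2 and 20.1 CPM in mutants and at 30.1, 27.7 and 65.2 CPM in wild types, without overlap, for a log2 fold change of -1.59 ± 0.10. Cd34, a surface antigen of progenitors that endothelial cells also carry, had -0.92 ± 0.07, and Ly6a, known as Sca-1, had -0.85 ± 0.08. Wisp2, a secreted protein of mesenchymal precursors, had -0.43 ± 0.06 but did not pass without pair 2 or pair 3 (adjusted p 0.119 and 0.132, edgeR with block), and without the block its sign turned when wild type 3 was left out. The fifth call was Lpar1, a receptor for lysophosphatidic acid, named after its values were seen, with -0.34 ± 0.06. Beside these, 18 of 23 endothelial markers fell. The number of calls in the list was 3 without pair 2 and 3 without pair 3.

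Of 13 tested lipase partners and lipoprotein receptors 2 fell and 0 rose, with a median of -0.04. The list had 4 calls without pair 1, 0 without pair 3 and 3 in DESeq2 with the block. Gpihbp1, which holds lipoprotein lipase on the endothelial surface and is also 1 of the 23 endothelial markers, stood at 9.21, 13.1 and 21.2 CPM across mutants 1 to 3 and at 17.4, 33.0 and 46.3 CPM across wild types 1 to 3. Its log2 fold change was -1.15 ± 0.09 (adjusted p 0.00598, edgeR with block), and an adjusted p of 0.0528 without pair 3 in edgeR. Lipg, endothelial lipase, stood at 10.6, 7.68 and 15.4 CPM in Sharpin-cpdm and at 20.0, 10.2 and 29.1 CPM in wild type, lowest in libraries 2 as Lpl was. Its log2 fold change was -0.79 ± 0.13 (adjusted p 0.0370, edgeR with block), and an adjusted p of 0.229 without pair 3 in edgeR. Lmf1, which matures the lipase in the endoplasmic reticulum, had 0.05 ± 0.06, and Angptl4, a secreted inhibitor of the lipase, had -0.27 ± 0.17, at adjusted p 0.757 and 0.491 (edgeR with block). These 2 were chosen for their role beside Lpl after their values were seen.

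Genes of lipid droplets and of fat storage outside the 10 showed few calls. Of 17 tested droplet and lipolysis genes 2 fell and 0 rose (median -0.08). They were Cav1 and Cav2, the caveolins that shape membrane pits in fat, endothelial and mesenchymal cells, with log2 fold changes of -0.34 ± 0.05 and -0.53 ± 0.07; neither passed without pair 2 or without pair 3. The droplet coat Plin2, which most cell types express, stood at 179, 160 and 153 CPM across mutants 1 to 3 and at 143, 158 and 150 CPM across wild types 1 to 3, against at most 1 count per library for Plin1. Of 30 tested genes of triglyceride synthesis and fatty acid handling 0 fell and 0 rose, 19 had a log2 fold change above 0, and the median was 0.09. Fabp5, the close relative of Fabp4, had 0.38 ± 0.08 (adjusted p 0.0847, edgeR with block) and lay at 26.8, 35.4 and 27.8 CPM in Sharpin-cpdm and 19.8, 31.1 and 18.8 CPM in wild type. Each Sharpin-cpdm library was above its partner for Fabp5 and below it for Fabp4. Lpin3, a phosphatidate phosphatase, had -0.39 ± 0.10 (adjusted p 0.117, edgeR with block). Without pair 1 the list had 4 calls.

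Of 20 tested adipokines 3 fell and 0 rose, with a median of -0.28. Igf1, insulin-like growth factor 1, had a log2 fold change of -0.53 ± 0.07. Agt, angiotensinogen, had -1.64 ± 0.24 from means of 2.65 ± 1.51 CPM in wild type and 0.862 ± 0.531 CPM in Sharpin-cpdm (SD, n = 3). C1qtnf9, a paralogue of adiponectin, had -1.10 ± 0.19. Neither Agt nor C1qtnf9 passed without pair 2 or pair 3, nor Igf1 without pair 3. The list had 6 calls without pair 1 and 1 each without pair 2 and pair 3, and DESeq2 with the block also called 1. Retn, the hormone resistin, had 0 counts in all libraries. Of 12 tested adipokine and insulin receptors 2 fell and 0 rose (median -0.02), with 3 calls without pair 1 and 1 each without pair 2 and pair 3. Cdh13, T-cadherin, which binds adiponectin, had -0.72 ± 0.06 and separated the groups, at 20.6 to 25.3 CPM in Sharpin-cpdm and 34.2 to 39.8 CPM in wild type. Aplnr, the apelin receptor, also known from endothelial cells, had -1.39 ± 0.19 and did not pass without pair 2 or pair 3 (adjusted p 0.136 and 0.107, edgeR with block). Without the block, leaving out wild type 2 moved it from -1.50 to -0.32. The signalling receptors of adiponectin, Adipor1 and Adipor2, had -0.01 ± 0.05 and 0.03 ± 0.06. Of 10 tested brown and beige fat genes 1 fell and 0 rose (median -0.36): Dio2, which activates thyroid hormone, with -1.26 ± 0.14 and no call without pair 2 or pair 3. Ucp1, the uncoupling protein that defines brown fat, reached at most 0.0639 CPM.

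**Figure D5:**
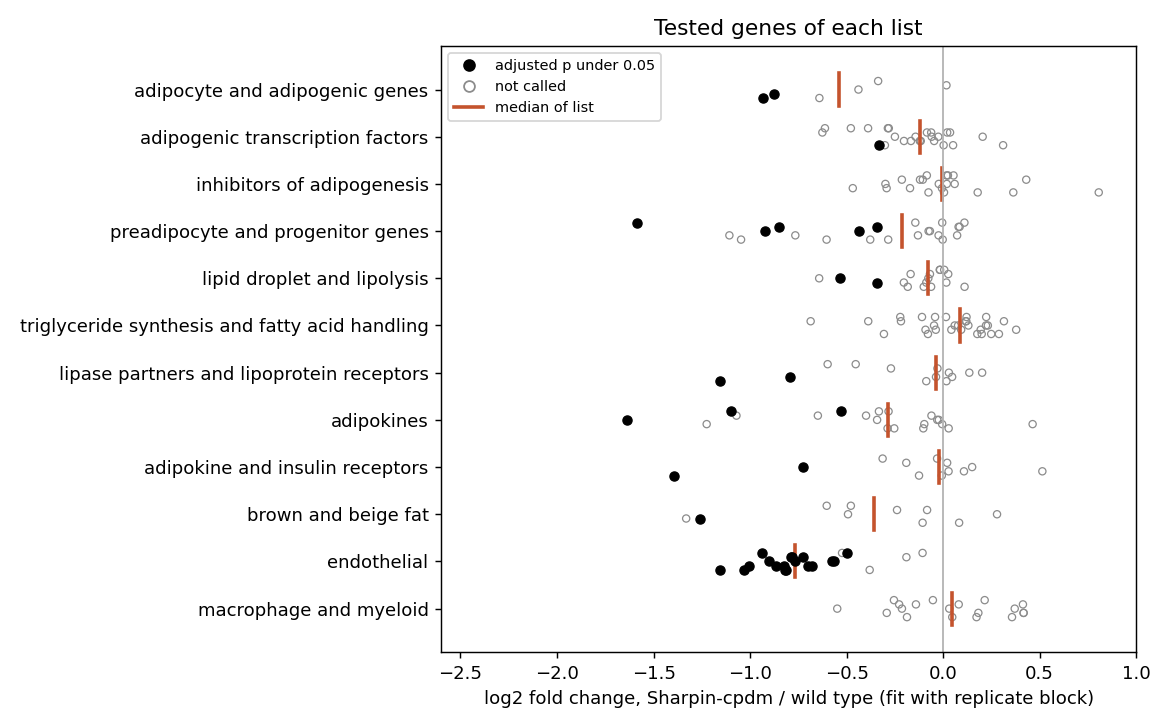
Log2 fold change of Sharpin-cpdm against wild type in the fit with the replicate block for the tested genes of each list, filled where the adjusted p was under 0.05, with the median of each list in red. The filled symbols lie to the left of 0, with 18 of 23 among endothelial markers and 2 of 6 among the adipocyte and adipogenic genes.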

How the data were processed

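RNA was sequenced from 6 cultures, 3 per genotype. The build mm10 and the tools TopHat2 2.0.10, HTSeq 0.5.4p3 and bcl2fastq 1.8.4 are named per the submitters' processing notes. Annotation, strand and overlap settings are not given in the sources used here. For each library the authors deposited raw read counts by gene symbol; preparation followed Illumina's TruSeq RNA v2 guide, per the labels' protocols. The 5 summary rows were left out of all totals; they made up 48.8% to 51.2% of each table's sum, mostly alignments that were not unique, so reads shared with near-identical copies are missing. In a blastn 2.17.0 search of GENCODE M21 transcripts at 95% identity over 100 bases, Plin1 alone of the 10 genes matched another gene.

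CPM is the count scaled to 1000000 gene counts. Genes were filtered with filterByExpr (13442 of 23337 kept), scaled by TMM, and tested in edgeR 4.0.16 (R 4.3.3) by the quasi-likelihood F-test, two-sided, with Benjamini-Hochberg adjustment over all tested genes at 0.05; SE is |log2 fold change| over √F. The planned test had no block. Deviations of log2 CPM (prior count 2) from the group means correlated at 0.457, 0.809 and 0.737 for same-numbered libraries 1, 2 and 3, so the numbers were treated as pairs, a choice that rests on the data since the labels do not explain them. Whether the pools of mice were independent is not stated beyond 3 mice per sample. The p-values without the block cover the spread between these cultures within a genotype. Those with the block cover only the spread that is left after differences between the numbered pairs are taken out. No libraries of a group agreed within sampling noise (chi-square per degree of freedom of 17.7 to 91.0). DESeq2 1.42.0, limma 3.58.1, other scalings, no filter and left-out libraries were alternatives. Both edgeR fits were tested on simulated data that carried the measured differences between the numbered pairs. There the fit with the block made more false calls than the adjustment allows for and the fit without it made none. Those differences widen the spread that the fit without the block sees. Its lack of false calls therefore does not show that it finds true differences.

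The genes described and the lists were chosen with earlier results of these data known. From each list other than the cell type lists, which are given by counts and sums, up to 4 called genes with the smallest p were named, or 2 where none was called, and for each tested member the 3 genes of at least 5 CPM with the largest Pearson's r (predicted genes left out), of which 1 is not reported here. Chosen after seeing the data were the promoter motifs (the C/EBP spacing was changed after its matches were seen), the transcript length for levels (the union of exons was used first) and the ratio to the endothelial sum.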

Additional observations from a re-analysis of the deposited data

How the results depend on the processing

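With the replicate block edgeR called 284 genes lower and 53 higher, 2 of the 6 tested adipocyte and adipogenic genes among them, against 0 without it. DESeq2 called 8 lower and 2 higher without the block, and 288 lower and 53 higher with it. Chosen after seeing the data, the block was also combined with no filter (386 lower, 116 higher), library totals (307 and 58) and RLE factors (280 and 56). Fabp4 and Lpl were the 2 calls in each of these and in DESeq2 with the block. With the block and without pair 1, 2 or 3, 519, 119 and 41 genes were lower, 134, 9 and 3 higher, and 2, 2 and 1 of the tested members called. Without pair 3 Plin4 did not pass the low-count filter and was not tested. The test of replicate number called 4999 genes, 2855 in DESeq2's likelihood ratio test, and between 943 and 6092 without 1 pair, with between 2 and 3 of the tested members instead of 4.

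Fabp4 and Lpl were below 0 in all 20 fits, at -1.21 to -0.72 and -1.35 to -0.56. Without 1 library or pair, Cebpa lay between -0.063 and 0.14 (-0.027 with the block without pair 1), Cd36 between -0.66 and 0.023, Foxc2 between -0.055 and 1.76, Ly6a between -1.64 and 0.00381, and Wisp2 between -0.998 and 0.16. The sign turned without mutant 3 or wild type 1 or 2 for Cebpa, mutant 1 for Cd36, mutant 2 for Foxc2 and wild type 3 for Ly6a and Wisp2. The cause was not tested. Where a library is left out of a group without the block, its remaining 2 set the spread together with the other group. Depth limits Adipoq, Plin1, Cidec, Lep and Plin4.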
